A study of Mus musculus with 6 samples.

Results

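The FOS, JUN and EGR immediate early genes were followed in primary heart muscle cells from newborn mice. The members are the rows for Fos, Fosb, Fosl1, Fosl2, Jun, Junb, Jund, Egr1, Egr2 and Egr3, chosen by symbol, and all 10 were found among the 32245 gene symbols of each library. Polyadenylated RNA was counted in 6 libraries, 2 for each of 3 groups of wild type cardiomyocytes: cells given BMP2 with dorsomorphin (BMP2+DM), cells given BMP2 alone, and cells given phosphate-buffered saline (PBS). BMP2, a secreted growth factor, acts through BMP receptor kinases that activate SMAD transcription factors. The compound dorsomorphin blocks those kinases and is also known to inhibit AMP-activated protein kinase. No group received dorsomorphin alone, and the labels state neither dose nor treatment time. Whether the 2 libraries of a group are separate cultures is not stated, and p-values therefore measure only the spread between these samples, which may be technical.

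Immediate early genes are switched on within minutes of a signal, without new protein synthesis, mostly through MAP kinases acting on serum response factor, its ternary complex partners and CREB. FOS and JUN proteins pair through leucine zippers to form AP-1, which binds DNA and controls genes of proliferation, matrix remodelling and stress. EGR proteins are zinc-finger transcription factors of the same early wave. In heart muscle cells, Fos, Jun and Egr1 are known to rise quickly after stretch, hypertrophic agonists and cell isolation.

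The libraries held 10106667 to 14366042 gene counts, and the members took 0.0472% to 0.0565% of them. BMP2 replicate 1 and PBS replicate 1 stood apart: the ribosomal-repeat genes Gm42418 and AY036118 took 2.1% and 1.31% of these libraries, and 0.0702% to 0.0928% of the other 4. The treatments were checked on Id1 and Smad6, both known as SMAD-responsive genes. Id1 had 16.9 and 16.1 CPM (counts scaled to library size with TMM factors) in BMP2+DM libraries, 46.6 and 49.7 CPM in BMP2 libraries and 55.6 and 51.4 CPM in PBS libraries. Its log2 fold change was −1.54 ± 0.13 (SE) for BMP2+DM against BMP2 (adjusted p = 3.56e-07) and −0.15 ± 0.11 for BMP2 against PBS (adjusted p = 0.429). Smad6, which encodes an inhibitory SMAD, had 44.8 and 52.6 CPM in BMP2+DM libraries, 171 and 201 CPM in BMP2 libraries and 141 and 163 CPM in PBS libraries. It fell with dorsomorphin (log2 −1.93 ± 0.10, adjusted p = 1.05e-09) and rose with BMP2 against PBS (0.29 ± 0.09, adjusted p = 0.041). All 12 cardiomyocyte markers examined, among them Tnnt2 and Myh6, had counts, with summed levels of 30400 to 30700 CPM in BMP2+DM, 27300 to 27600 CPM in BMP2 and 35500 to 36000 CPM in PBS. Fibroblast markers summed to 12200 to 12800 CPM in BMP2+DM, 14000 to 14200 CPM in BMP2 and 13000 to 13900 CPM in PBS, so the cultures also held RNA of fibroblast marker genes. In bulk RNA, fewer cells of a type and less RNA per cell cannot be told apart.

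With dorsomorphin added to BMP2, 6 of the 10 members were lower and none higher: Fos, Fosl1, Junb, Egr1, Egr2 and Egr3 passed the test (edgeR quasi-likelihood test, Benjamini-Hochberg adjusted p under 0.05). Over all 14378 tested genes, 4.44% were called lower in that comparison and 4.28% higher, 8.73% in all. BMP2 alone against PBS called 1 member, Jund, which was lower, against 9.29% of all genes called lower and 6.55% higher, 15.8% in all. BMP2+DM against PBS called 6 members lower and none higher: Fosb, Fosl1, Junb, Jund, Egr2 and Egr3, against 11.5% and 9.38% of all genes, 20.9% in all. The median log2 fold change of the 10 members was 0.06 for BMP2 against PBS, −0.70 for BMP2+DM against BMP2 and −0.47 for BMP2+DM against PBS, beside 0.004, 0 and 0.007 over all tested genes. All 10 passed the filter on low counts, but 3 of them (Fosb, Egr2 and Egr3) were below its level of 0.93 CPM in both BMP2+DM libraries and entered through the other groups, so the counts of members are a description. The comparisons share libraries: both that involve BMP2 use the same BMP2 libraries, and both that involve PBS the same PBS libraries.

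**Figure D1:**
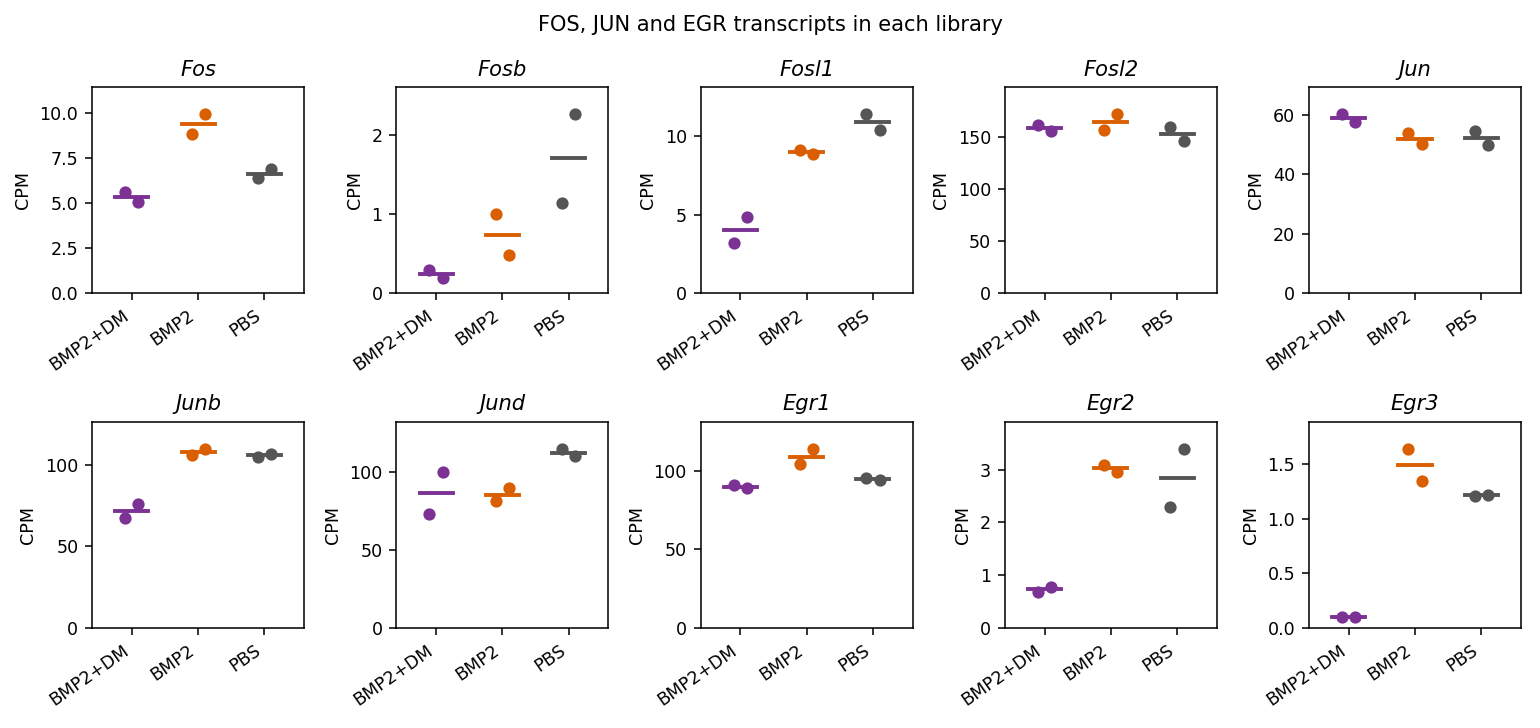
CPM of each gene in the 2 libraries of each group (points) with the group mean (line); each panel starts at 0 and has its own scale. The BMP2+DM points lie below those of the other groups for Junb (67.6 and 76.3 CPM), Fos, Fosb, Fosl1, Egr1, Egr2 and Egr3. The Fosl2 points overlap in all 3 groups.

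**Figure D2:**
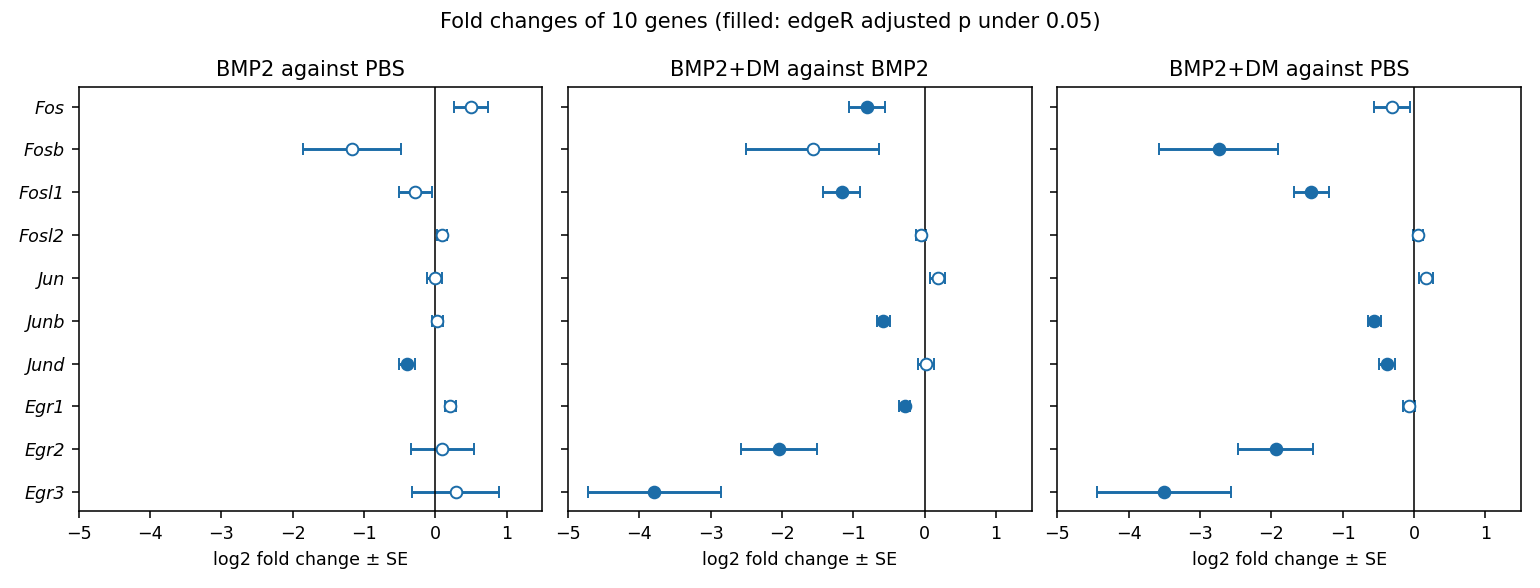
Log2 fold change with its standard error for each of the 10 genes in the 3 comparisons; filled points passed the edgeR test. Filled points lie left of 0 in every panel, 1 in BMP2 against PBS and 6 in each comparison with BMP2+DM.

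The FOS family was dominated by Fosl2 on a scale per kilobase. Fosl2 encodes Fra-2, a FOS protein without the strong activation domain of c-Fos. Its level was 16.4 ± 0.411 RPKM (CPM per kilobase of annotated exons) in BMP2+DM, 17.0 ± 1.09 RPKM in BMP2 and 15.8 ± 0.991 RPKM in PBS (SD, n = 2 each). Its counts were 1673 and 1609 in BMP2+DM libraries, 1727 and 1801 in BMP2 libraries, and 2235 and 1679 in PBS libraries, or 162 and 156 CPM, 157 and 172 CPM, and 160 and 146 CPM. The groups overlapped in each comparison. The log2 fold change was −0.05 ± 0.07 for BMP2+DM against BMP2, with a 95% interval from −0.20 to 0.10, and 0.10 ± 0.07 for BMP2 against PBS, with an interval from −0.05 to 0.25.

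Fos, which encodes the c-Fos subunit of AP-1, had 58 and 52 counts in BMP2+DM libraries, 97 and 104 in BMP2 libraries and 89 and 79 in PBS libraries. These are 5.62 and 5.05 CPM in BMP2+DM, 8.82 and 9.93 CPM in BMP2, and 6.36 and 6.88 CPM in PBS. Both BMP2 libraries were the highest and both BMP2+DM libraries the lowest, with no overlap between any pair of groups. Fos fell with dorsomorphin, by 0.81 ± 0.25 on the log2 scale or 1.76-fold (adjusted p = 0.0477). That call stood at the edge of the threshold and was lost in 11 of 13 alternative fits, among them DESeq2 (adjusted p = 0.133) and the fit without each of the 6 libraries (log2 −0.90 to −0.72, adjusted p = 0.0659 to 0.215). The difference of 0.50 ± 0.24 for BMP2 against PBS did not pass (adjusted p = 0.173), nor did −0.31 ± 0.25 for BMP2+DM against PBS (adjusted p = 0.429).

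Fosl1 encodes Fra-1, a FOS protein known as a target of AP-1 itself and of ERK signalling. It had 33 and 50 counts in BMP2+DM libraries, 100 and 93 in BMP2 libraries and 160 and 119 in PBS libraries, or 3.19 and 4.86 CPM, 9.09 and 8.88 CPM, and 11.4 and 10.4 CPM. The BMP2+DM libraries were the lowest and the PBS libraries the highest, with no overlap. Fosl1 was 2.23-fold lower in BMP2+DM than in BMP2 (log2 −1.16 ± 0.26, adjusted p = 0.00815) and 2.71-fold lower than in PBS (log2 −1.44 ± 0.25, adjusted p = 0.000456). Without BMP2+DM replicate 1 the log2 fold change against BMP2 was −0.89 (adjusted p = 0.0852), and without PBS replicate 1 and BMP2 replicate 1 together it was −1.14 (adjusted p = 0.167). The call against PBS was kept in 13 of 13 alternatives (log2 −1.77 to −1.17). BMP2 against PBS gave −0.28 ± 0.23 (adjusted p = 0.484). Of the exonic bases of Fosl1, 57.2% also lie in Ccdc85b on the opposite strand. The reads of this pair cannot be told apart unless both the library and the counting kept strand. Ccdc85b was at 20.8 and 20.1 CPM in BMP2+DM, 26.3 and 26.3 CPM in BMP2, and 31.3 and 28.2 CPM in PBS, with a log2 fold change of −0.36 ± 0.14 for BMP2+DM against BMP2 (adjusted p = 0.133) and −0.54 ± 0.14 for BMP2+DM against PBS (adjusted p = 0.0091), the second of which passed.

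Fosb was the rarest of the FOS genes. It encodes FosB, whose shorter splice form, known from neurons, is long-lived. It had 3 and 2 counts in BMP2+DM libraries, 11 and 5 in BMP2 libraries and 16 and 26 in PBS libraries, and the groups did not overlap in CPM. BMP2+DM was lower than PBS (5 counts against 42 over the groups, a ratio of 0.147 with a 95% counting interval from 0.0454 to 0.371), with a fitted log2 fold change of −2.74 ± 0.83 (adjusted p = 0.0256). The call was lost in 6 of 13 alternatives: with DESeq2 (adjusted p = 0.0535), without PBS replicate 1 (log2 −3.16, adjusted p = 0.0523), without PBS replicate 2 (−2.19, 0.25), without BMP2+DM replicate 1 (−3.05, 0.103), without BMP2+DM replicate 2 (−2.49, 0.154) and without PBS replicate 1 and BMP2 replicate 1 together (−3.16, 0.0703). BMP2+DM against BMP2 gave −1.57 ± 0.93 (adjusted p = 0.35) and BMP2 against PBS −1.17 ± 0.69 (adjusted p = 0.293). All intervals from counts cover counting error only.

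The make-up of the FOS family is given as a description, with no test. Fosl2 held 77.9% and 80.7% of the family's RPKM in the BMP2+DM libraries, against 65.9% to 67.2% in BMP2 and 64.3% to 66.0% in PBS. Fosl1 held 7.58% to 11.5% in BMP2+DM, 16.5% to 18.2% in BMP2 and 21.7% to 22.5% in PBS. Fos held 10.4% to 11.5% in BMP2+DM, 15.2% to 16.0% in BMP2 and 10.8% to 12.5% in PBS. These shares assume that the whole annotated exonic length of each gene is transcribed in these cells. They also depend on how reads in the bases that Fosl1 shares with Ccdc85b were counted, which is not stated.

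**Figure D3:**
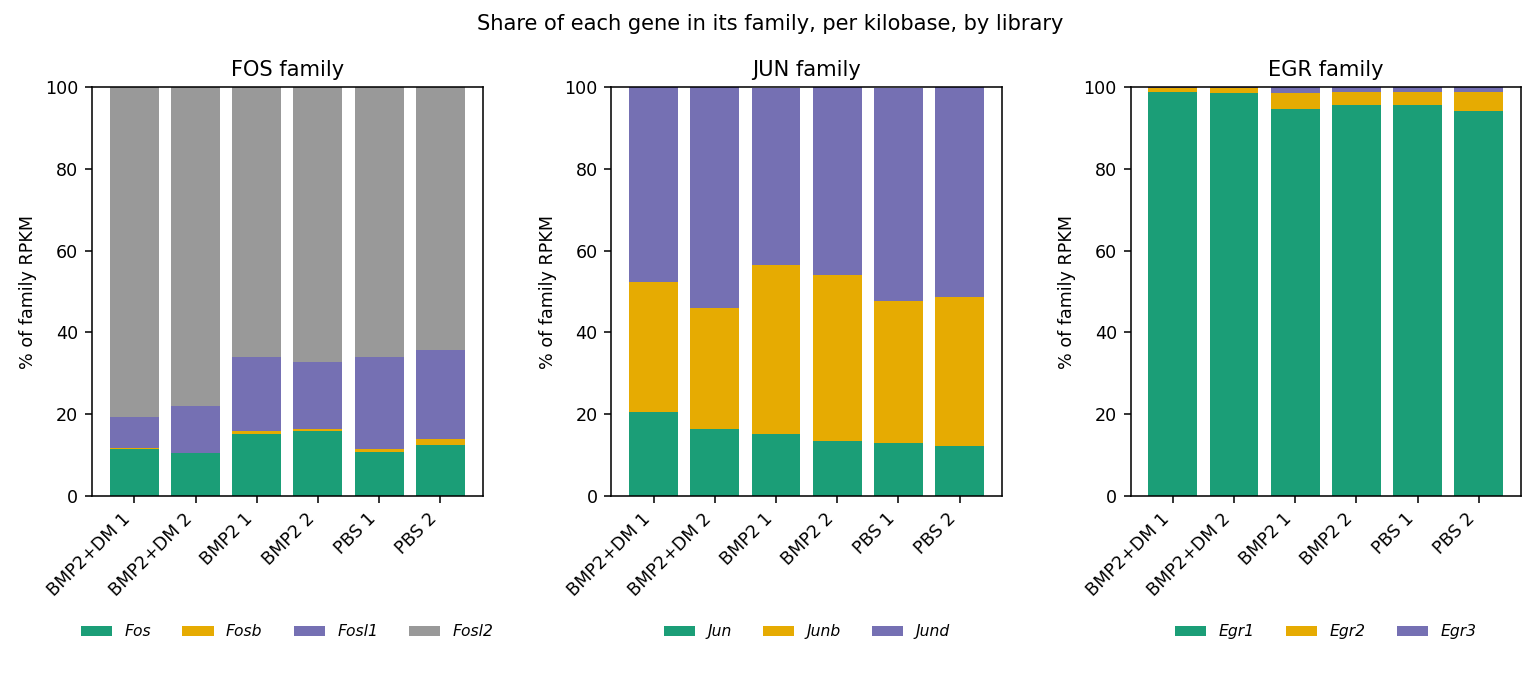
Share of each gene in the summed RPKM of its family, for the 6 libraries; each bar adds to 100%. Fosl2 fills 77.9% and 80.7% of the FOS bars in BMP2+DM and 64.3% to 67.2% in the other 4 libraries, Junb is narrowest in BMP2+DM (29.8% and 31.9%), and Egr1 fills at least 94.3% of every EGR bar.

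Among the JUN genes, Junb was lower with dorsomorphin in every alternative fit run. JunB is a weaker activator than c-Jun and can oppose it. Junb had 698 and 785 counts in BMP2+DM libraries, 1168 and 1148 in BMP2 libraries and 1463 and 1233 in PBS libraries. These are 67.6 and 76.3 CPM in BMP2+DM, 106 and 110 CPM in BMP2, and 105 and 107 CPM in PBS, so the BMP2 and PBS libraries overlapped and both BMP2+DM libraries lay below them. Junb fell 1.5-fold with dorsomorphin (log2 −0.58 ± 0.09, adjusted p = 0.000226) and was 1.47-fold lower than in PBS (log2 −0.56 ± 0.09, adjusted p = 0.000106). Both calls were kept in 13 of 13 alternatives, with log2 fold changes from −0.67 to −0.50 and from −0.65 to −0.48. BMP2 against PBS gave 0.03 ± 0.08, with a 95% interval from −0.15 to 0.20. Of its exonic bases, 7.5% also lie in Prdx2 on the opposite strand, a peroxiredoxin gene whose log2 fold change was 0.03 ± 0.06 for BMP2+DM against BMP2 (adjusted p = 0.799).

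Jun, which encodes c-Jun, the main activating partner in AP-1, did not pass in any comparison. It had 622 and 594 counts in BMP2+DM libraries, 593 and 524 in BMP2 libraries and 764 and 572 in PBS libraries, or 60.2 and 57.7 CPM, 53.9 and 50 CPM, and 54.6 and 49.8 CPM. The BMP2+DM libraries were the highest, and the BMP2 and PBS libraries overlapped. The log2 fold change was 0.18 ± 0.11 for BMP2+DM against BMP2 (95% interval −0.04 to 0.40, adjusted p = 0.342) and −0.01 ± 0.11 for BMP2 against PBS (95% interval −0.23 to 0.21).

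Jund encodes JunD, which differs from the other JUN proteins in being made constantly in resting cells. It had 755 and 1028 counts in BMP2+DM libraries, 892 and 937 in BMP2 libraries and 1603 and 1264 in PBS libraries. These are 73.1 and 99.9 CPM in BMP2+DM, 81.1 and 89.5 CPM in BMP2, and 115 and 110 CPM in PBS, so both treated groups lay below PBS and the BMP2+DM pair spread across the BMP2 pair. Jund fell 1.32-fold with BMP2 (log2 −0.40 ± 0.11, adjusted p = 0.02) and was 1.30-fold lower in BMP2+DM than in PBS (log2 −0.38 ± 0.11, adjusted p = 0.0221). BMP2+DM against BMP2 gave 0.02 ± 0.11, with a 95% interval from −0.22 to 0.26. The BMP2 call was lost without PBS replicate 1 (log2 −0.37, adjusted p = 0.137), PBS replicate 2 (−0.43, 0.0848), BMP2 replicate 1 (−0.33, 0.168), or PBS replicate 1 and BMP2 replicate 1 together (−0.30, 0.478). The call for BMP2+DM against PBS was lost without PBS replicate 1 (−0.35, 0.138), PBS replicate 2 (−0.41, 0.0842), BMP2+DM replicate 1 (−0.17, 0.298), or PBS replicate 1 and BMP2 replicate 1 together (−0.35, 0.237), and was −0.62 without BMP2+DM replicate 2. Of the exonic bases of Jund, 52.6% lie within the opposite-strand model Gm11175. Gm11175 itself had a log2 fold change of −0.41 ± 0.10 for BMP2 against PBS (adjusted p = 0.00798). Reads of the pair cannot be told apart unless both the library and the counting kept strand.

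Per kilobase, Jund and Junb were the highest members in each group, at 51.9 ± 11.4 and 31.3 ± 2.67 RPKM in BMP2+DM, 51.1 ± 3.54 and 46.9 ± 1.04 RPKM in BMP2, and 67.3 ± 1.92 and 46.0 ± 0.856 RPKM in PBS. Egr1 followed, at 20 ± 0.346 RPKM in BMP2+DM, 24.4 ± 1.51 RPKM in BMP2 and 21.1 ± 0.201 RPKM in PBS. Jun and Fosl2 came next. Jun was at 18.5 ± 0.554 RPKM in BMP2+DM, 16.3 ± 0.864 RPKM in BMP2 and 16.4 ± 1.07 RPKM in PBS, which differed from Fosl2 by less than their spread in BMP2 and PBS. Fosl1 and Fos were lower, at 1.98 ± 0.579 and 2.27 ± 0.169 RPKM in BMP2+DM, 4.42 ± 0.0747 and 3.99 ± 0.333 RPKM in BMP2, and 5.36 ± 0.374 and 2.81 ± 0.155 RPKM in PBS. In BMP2+DM this pair differed by less than its spread. Egr2, Egr3 and Fosb were the lowest, with Egr2 at 0.214 ± 0.0207 RPKM in BMP2+DM, 0.89 ± 0.0275 RPKM in BMP2 and 0.836 ± 0.231 RPKM in PBS. With the longest annotated transcript as the length, Fosl2 moved to rank 3 in each group, and Junb passed Jund in BMP2. The levels of Jund and Fosl1, and so their place in the order, depend on how reads in bases shared with Gm11175 and Ccdc85b were counted. How such reads were counted is not stated.

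Of the EGR genes, Egr1 made up 98.7% to 98.9% of the family's RPKM in BMP2+DM, 94.8% to 95.6% in BMP2 and 94.3% to 95.7% in PBS. Egr1 is a zinc-finger factor induced by growth signals and mechanical load. It had 939 and 913 counts in BMP2+DM libraries, 1148 and 1194 in BMP2 libraries and 1331 and 1078 in PBS libraries, or 90.9 and 88.7 CPM, 104 and 114 CPM, and 95.1 and 93.9 CPM. The BMP2 libraries were the highest and the BMP2+DM libraries the lowest, with no overlap between groups. Egr1 fell 1.22-fold with dorsomorphin (log2 −0.28 ± 0.08, adjusted p = 0.0387). The call was lost in 9 of 13 alternatives, among them DESeq2 (adjusted p = 0.0555) and the fit without each of the 6 libraries (log2 −0.34 to −0.22, adjusted p = 0.0569 to 0.282). Neither 0.21 ± 0.08 for BMP2 against PBS (adjusted p = 0.0928) nor −0.07 ± 0.08 for BMP2+DM against PBS (adjusted p = 0.587) passed.

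Egr2 and Egr3 were called lower with dorsomorphin on few counts. Egr2, known as Krox20 and best known from hindbrain and Schwann cells, had 7 and 8 counts in BMP2+DM libraries, 34 and 31 in BMP2 libraries and 32 and 39 in PBS libraries. These are 0.678 and 0.777 CPM in BMP2+DM, 3.09 and 2.96 CPM in BMP2, and 2.29 and 3.40 CPM in PBS, so the BMP2 libraries lay within the PBS range and both BMP2+DM libraries below it. Over the groups, 15 counts in BMP2+DM against 65 in BMP2 give a ratio of 0.24 with a counting interval from 0.127 to 0.426. The fitted log2 fold change was −2.04 ± 0.53 (adjusted p = 0.0207) against BMP2 and −1.94 ± 0.53 (adjusted p = 0.0132) against PBS. The first was not called without either BMP2 library or either BMP2+DM library (log2 −2.14 to −1.95, adjusted p = 0.0714 to 0.0938) or without PBS replicate 1 and BMP2 replicate 1 together (−2.01, 0.186). The second was not called without PBS replicate 2 (−1.64, 0.122), without BMP2+DM replicate 1 (−1.85, 0.0635) or without PBS replicate 1 and BMP2 replicate 1 together (−2.21, 0.0645).

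Egr3, which growth factors including VEGF are known to induce in endothelial cells, had 1 and 1 count in BMP2+DM libraries, 18 and 14 in BMP2 libraries and 17 and 14 in PBS libraries. Both BMP2+DM libraries were far below the other 4, which ran from 1.21 to 1.64 CPM. Over the groups, 2 counts in BMP2+DM against 32 in BMP2 give a ratio of 0.0651, with a counting interval from 0.00756 to 0.255, and 2 against 31 in PBS a ratio of 0.0797, with an interval from 0.00924 to 0.313. Both differences passed, with adjusted p = 0.0148 against BMP2 and 0.0126 against PBS. Neither was called without any 1 of the 4 libraries it compares (adjusted p = 0.055 to 0.104 against BMP2, and 0.0626 to 0.0865 against PBS), or without PBS replicate 1 and BMP2 replicate 1 together (0.179 and 0.0989). For BMP2 against PBS, Egr2 gave 0.10 ± 0.44 (95% interval −0.83 to 1.03) and Egr3 0.29 ± 0.61 (95% interval −0.99 to 1.57), and a difference was not detectable at this depth. Of 12 endothelial markers, 5 were lower in BMP2+DM than in BMP2 (Cdh5, Kdr, Flt1, Emcn and Ptprb), beside 4.44% of all tested genes. The other endothelial markers did not pass. The 12 summed to 254 to 269 CPM in BMP2+DM, 394 CPM in both BMP2 libraries and 432 to 443 CPM in PBS, and Ptprb alone averaged 44.6 CPM in BMP2+DM, 88.8 CPM in BMP2 and 105 CPM in PBS. Their part in the EGR differences was not tested.

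Promoters of members that moved together with dorsomorphin are shown with that of Jun, which did not pass. RefSeq promoters (GRCm38.p6, the same assembly as mm10) were used for 7 of the 10 members: Fos, Fosb, Fosl2, Jun, Junb, Jund and Egr2. Windows of Fosl1, Egr1 and Egr3 were not used, so the counts of motifs in members leave these genes out. That they were not used does not show that RefSeq lacks a promoter for them. The RefSeq starts of Fosl2 and Jund, both included in the counts of motifs, lie 671 and 1210 bases from the GENCODE starts. The 250 bases before the start site are given 5′ to 3′. Capitals mark the motifs searched on both strands.
Fos (chr12:85473640-85473889, plus strand): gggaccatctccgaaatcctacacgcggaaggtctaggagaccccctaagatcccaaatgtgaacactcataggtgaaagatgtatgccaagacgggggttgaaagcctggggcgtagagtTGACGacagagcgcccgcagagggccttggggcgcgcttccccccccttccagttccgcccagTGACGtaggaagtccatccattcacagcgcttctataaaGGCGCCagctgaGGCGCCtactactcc
Junb (chr8:84978749-84978998, minus strand): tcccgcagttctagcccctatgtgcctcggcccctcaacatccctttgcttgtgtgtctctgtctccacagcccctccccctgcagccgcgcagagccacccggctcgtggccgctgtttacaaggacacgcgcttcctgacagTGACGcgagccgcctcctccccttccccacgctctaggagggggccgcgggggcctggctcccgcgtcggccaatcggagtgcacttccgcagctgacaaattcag
Egr2 (chr10:67537619-67537868, plus strand): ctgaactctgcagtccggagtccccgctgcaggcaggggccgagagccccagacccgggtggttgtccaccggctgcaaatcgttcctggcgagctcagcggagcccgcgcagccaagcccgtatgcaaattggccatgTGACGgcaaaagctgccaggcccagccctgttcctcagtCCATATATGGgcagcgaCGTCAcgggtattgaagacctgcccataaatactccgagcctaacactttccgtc
Jun (chr4:95052223-95052472, minus strand): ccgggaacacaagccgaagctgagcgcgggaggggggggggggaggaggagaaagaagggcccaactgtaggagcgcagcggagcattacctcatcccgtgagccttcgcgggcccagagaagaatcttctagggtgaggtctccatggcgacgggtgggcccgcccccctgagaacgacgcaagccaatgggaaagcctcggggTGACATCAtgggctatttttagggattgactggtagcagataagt
For Egr2, 1 of 5 RefSeq windows is shown, the one whose start is that of the principal GENCODE transcript. The CRE half-site TGACG, part of the sequence bound by CREB and ATF factors, occurred at −129 and −66 in Fos, at −106 in Junb and at −111 and −55 in Egr2, counted from the motif's first base to the start site. It was found in 4 of the 7 members' windows and in 17.7% of all 32817 windows of this length. The CArG box bound by serum response factor was found at −72 in Egr2, in 1 of 7 members and in 1.47% of all windows. The CRE-type site TGACNTCA, which holds the half-site where N is G, was found at −45 in Jun and in 7.49% of all windows, and in 1 of 7 members. GGCGCC, a sequence bound by SMADs of the BMP branch, was found at −27 and −15 in Fos, in 3 of 7 members and in 9.59% of all windows. The AP-1 site TGANTCA was in 0 of 7 members and 6.75% of all windows, and the EGR site GCGNGGGCG in 2 of 7 members and 4.70% of all windows. These matches describe letters only, within 250 bases before the start. Sites farther away were not searched, so a motif not found here may lie outside the window.

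In the mm10 build, the gene Fos spans 85473890 to 85477273 of chromosome 12 (plus strand), with Fosl1 on the plus strand of chromosome 19 (5447547 to 5455946), Junb on the minus strand of chromosome 8 (84974484 to 84978718), Jund on the plus strand of chromosome 8 (70698949 to 70700616), Egr2 on the plus strand of chromosome 10 (67535475 to 67542188) and Egr3 on the plus strand of chromosome 14 (70077203 to 70082614), from the GENCODE vM21 annotation. The counts are sums over each gene's exons.

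Textbook targets of AP-1 were counted next. Of 17 tested, 8 were lower in BMP2+DM than in BMP2 and 0 higher (median log2 −0.42), and 14 were lower than in PBS and 0 higher (median −0.91). For BMP2 against PBS, 8 were lower and 1 higher (median −0.37). Of all tested genes, 4.44%, 11.5% and 9.29% were lower in these comparisons, in that order, and 4.28%, 9.38% and 6.55% higher. Mmp13, among the 14 lower than in PBS, averaged 0 CPM in BMP2+DM and 0.273 CPM in BMP2. It passed the filter on low counts (0.93 CPM) through PBS, where it was at 1.72 ± 1.02 CPM. The list was also chosen with earlier results of these data known, so its counts are a description. Timp1, an inhibitor of matrix metalloproteinases, was at 62.4 ± 2.7 CPM in BMP2+DM, 140 ± 7.45 CPM in BMP2 and 187 ± 18.1 CPM in PBS. On the log2 scale it fell by 1.17 ± 0.09 with dorsomorphin (adjusted p = 6.97e-08), Plaur, the urokinase receptor gene, by 1.39 ± 0.19, and Ptgs2, which encodes cyclooxygenase-2, by 1.39 ± 0.20.

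Lif, which encodes an IL-6 family cytokine, followed another course, at 22.1 ± 0.628 CPM in BMP2+DM, 45 ± 1.09 CPM in BMP2 and 20 ± 0.171 CPM in PBS. It rose with BMP2 (1.17 ± 0.13, adjusted p = 4.02e-06) and fell with dorsomorphin (−1.02 ± 0.13, adjusted p = 5.33e-05). Ccl2, a monocyte chemokine gene, Plau, which encodes urokinase, and Ccnd1, which encodes cyclin D1, were lower with BMP2 than with PBS by 0.82 ± 0.06, 1 ± 0.15 and 0.58 ± 0.07 on the log2 scale. Cd44, which encodes the hyaluronan receptor, was 0.84 ± 0.09 lower in BMP2+DM than in PBS. Mmp13, a collagenase gene, is named because of its values: it had 0 counts in both BMP2+DM libraries and 42 over both PBS libraries. With 3 counts as the floor, taken over both libraries, this is at least 11.3-fold lower in BMP2+DM, and the list's median with Mmp13 at that bound was also −0.91.

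Of 40 tested genes among other immediate early genes, 11 were lower and 1 higher in BMP2+DM than in BMP2 (median −0.02), 13 lower and 2 higher in BMP2 than in PBS (median −0.24), and 20 lower and 3 higher in BMP2+DM than in PBS (median −0.29). The shares over all tested genes were 4.44% lower and 4.28% higher, 9.29% and 6.55%, and 11.5% and 9.38%, in that order. Ccn2, a matricellular protein gene that YAP and SRF activate, was at 517 ± 5.72 CPM in BMP2+DM, 763 ± 3.04 CPM in BMP2 and 1380 ± 19.3 CPM in PBS. It fell with BMP2 (−0.85 ± 0.05) and was lower again with dorsomorphin (−0.56 ± 0.05). Sgk1, a serum-induced kinase gene, fell by 0.81 ± 0.13 with dorsomorphin, Csrnp1, a nuclear factor gene, by 0.84 ± 0.16, Errfi1, which encodes an inhibitor of the EGF receptor, by 0.69 ± 0.14, and Klf10, a TGF-beta inducible zinc-finger gene, by 0.59 ± 0.14. Pim1, Klf6, Btg1 and Klf2, encoding a kinase, a zinc-finger factor, an antiproliferative protein and a flow-sensitive factor, were lower with BMP2 than with PBS by 0.99 ± 0.13, 0.51 ± 0.07, 0.64 ± 0.10 and 1.80 ± 0.27. Myc was lower in BMP2+DM than in PBS by 1.18 ± 0.13.

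Negative feedback regulators of MAP kinases were lower in BMP2+DM than in PBS for 9 of 15 tested, with 0 higher (median −0.54). Of all tested genes, 11.5% were lower and 9.38% higher in that comparison. Against BMP2, 1 of 15 was lower in BMP2+DM (median −0.22), beside 4.44% of all tested genes. That gene was Dusp4, a nuclear phosphatase gene that ERK signalling induces, at 19.1 ± 3.24 CPM in BMP2+DM, 46.5 ± 0.810 CPM in BMP2 and 44.5 ± 2.80 CPM in PBS (log2 −1.28 ± 0.14, adjusted p = 7.9e-06, for BMP2+DM against BMP2). Dusp1, Dusp6 and Dusp5 fell with BMP2 against PBS, by 0.83 ± 0.16, 0.68 ± 0.14 and 0.75 ± 0.18, and were the 3 of 15 called. The share called over all tested genes was 15.8%. Spry4, a Sprouty inhibitor gene, and Dusp10 were lower in BMP2+DM than in PBS by 0.73 ± 0.17 and 0.93 ± 0.23.

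Kinases and SRF partners that carry signals to the members were also counted. Of 20 MAP kinase genes, 0 were called in BMP2+DM against BMP2 and 2 were lower in BMP2 than in PBS, Mapk9 (−0.36 ± 0.09), which encodes the JUN kinase JNK2, and Mapk12 (−0.61 ± 0.20). The 3 lower in BMP2+DM than in PBS were Mapk9 (−0.57 ± 0.09), Mapk12 (−0.70 ± 0.20) and Map2k1 (−0.36 ± 0.08), which encodes MEK1. Over all tested genes, 8.73% were called in BMP2+DM against BMP2. The shares called lower were 9.29% for BMP2 against PBS and 11.5% for BMP2+DM against PBS, so these counts are a description. Srf itself was at 85.5 ± 3.24 CPM in BMP2+DM, 81.2 ± 4.25 CPM in BMP2 and 82.1 ± 3.70 CPM in PBS and was not called, nor were Elk1, Elk4, Mrtfa and Mrtfb in any comparison. Myocd, the cardiac and smooth muscle partner of SRF, fell with BMP2 (−1.03 ± 0.12, adjusted p = 7.62e-06) and rose with dorsomorphin (0.56 ± 0.12, adjusted p = 0.00708). Elk3 was lower in BMP2+DM than in PBS (−0.37 ± 0.11, adjusted p = 0.0221).

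Of the EGR co-repressor genes, Nab2, itself known to be induced by EGR proteins, was at 40.9 ± 1.20 CPM in BMP2+DM, 54.6 ± 3.07 CPM in BMP2 and 67.8 ± 9.15 CPM in PBS. It fell with dorsomorphin (−0.42 ± 0.12, adjusted p = 0.0321), while Nab1 gave 0.00 ± 0.09, and Wt1 and Sp1 were not called. Egr4 had 0 counts in all libraries. Among 17 tested bZIP partners of FOS and JUN, Maff fell with dorsomorphin (−0.65 ± 0.16, adjusted p = 0.0127). Mafk (−0.66 ± 0.13) and Nfe2l1 (−0.19 ± 0.05) fell with BMP2 against PBS. Jdp2, which encodes a repressor that pairs with JUN, was lower in BMP2+DM than in PBS (−0.66 ± 0.13), as were Maff and Mafk. Of 9 genes of FOS and JUN turnover, 0 were called in BMP2+DM against BMP2, beside 8.73% of all tested genes. Zfp36l1, an mRNA decay factor gene, rose with BMP2 (0.33 ± 0.07), Zfp36l2 fell (−0.32 ± 0.10), and Fbxw7, the ubiquitin ligase gene, was higher in BMP2+DM than in PBS (0.36 ± 0.12).

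**Figure D4:**
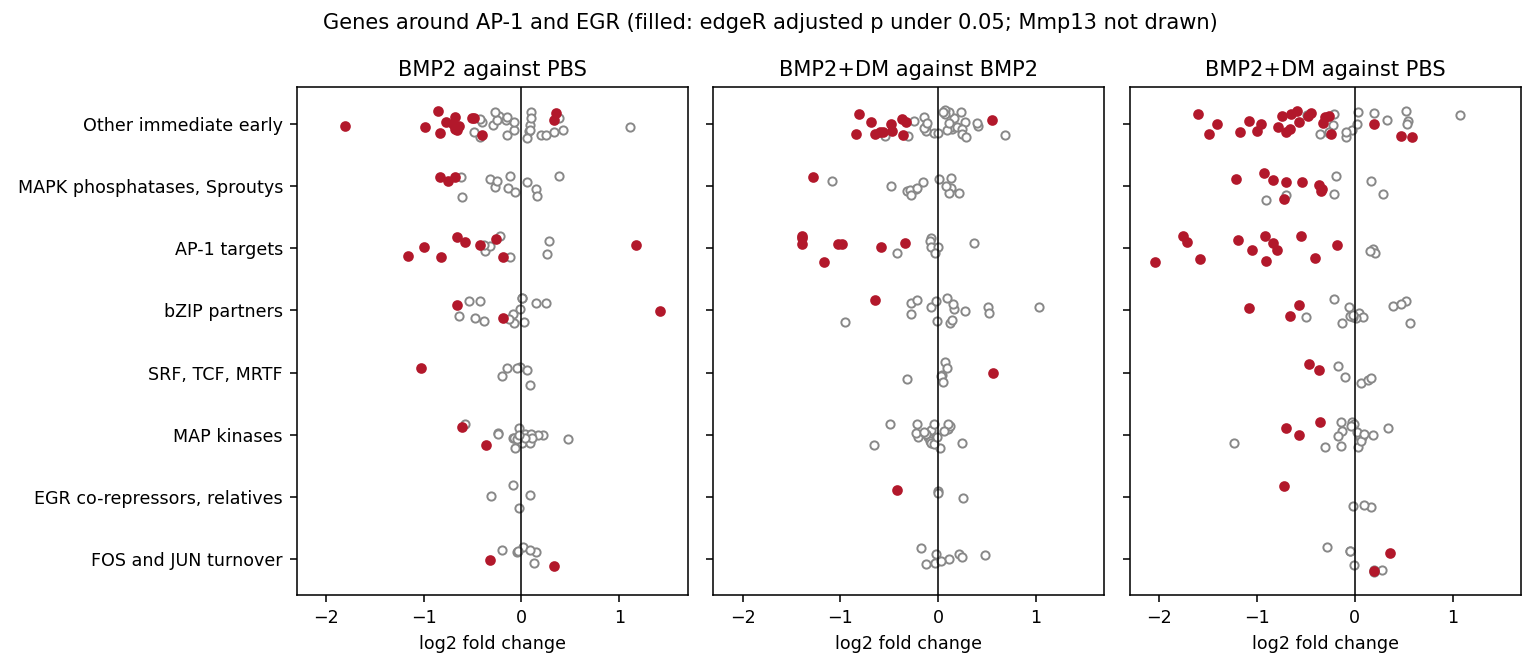
Log2 fold change of each tested gene of 8 lists around the members in the 3 comparisons; filled points passed the edgeR test, and vertical scatter within a list carries no meaning. AP-1 targets have 8 filled points left of 0 for BMP2+DM against BMP2 and 13 of their 14 for BMP2+DM against PBS (Mmp13 is not drawn), and MAP kinases none for BMP2+DM against BMP2.

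Markers of other cell types were counted in the same comparisons. Leukocyte markers summed to 63.2 to 65.5 CPM in BMP2+DM, 70.0 to 70.3 CPM in BMP2 and 93.4 to 95.2 CPM in PBS, with 5 of 12 tested, 1 of them lower in BMP2+DM than in BMP2. Cd3e, a T cell marker, had 1 count over all 6 libraries. Epicardial and mesothelial markers summed to 170 to 188 CPM in BMP2+DM, 154 to 162 CPM in BMP2 and 243 to 251 CPM in PBS, with 3 of 9 higher and 1 lower in BMP2+DM than in BMP2, and 6 lower with BMP2 than with PBS. Smooth muscle and pericyte markers summed to 1980 to 2090 CPM in BMP2+DM, 1970 to 2030 CPM in BMP2 and 3210 to 3280 CPM in PBS. Of 12 fibroblast markers, 3 were higher and 5 lower in BMP2+DM than in BMP2, and of 12 cardiomyocyte markers 5 were higher and 0 lower. Of the cardiomyocyte markers, 10 were lower and 0 higher with BMP2 than with PBS, and 8 were lower and 0 higher in BMP2+DM than in PBS. Over all tested genes, 4.28% were higher and 4.44% lower in BMP2+DM than in BMP2. The shares were 6.55% higher and 9.29% lower with BMP2 than with PBS, and 9.38% higher and 11.5% lower in BMP2+DM than in PBS. Whether these cell types have a part in the members' differences was not tested.

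Genes with the course most like a member's were found by the root-mean-square difference of centred log2 CPM over the 6 libraries, among 11048 genes outside the members. For Fos these included Rmdn2 (difference 0.0817, beside a standard deviation of 0.366 for Fos itself) and Smim3 (0.0862). Rmdn2 was at 9.02 CPM in BMP2+DM, 15.4 CPM in BMP2 and 11.8 CPM in PBS. For Egr1 they were Trp53bp1, a DNA repair gene (0.0268), Mtap (0.0314) and Mapk1ip1l (0.0314), and for Jun they were Gtf3c5 (0.0236), Pomgnt1 (0.0245) and Rbx1 (0.0257). Jun and Egr1 varied little over the libraries (standard deviations 0.109 and 0.137), so many genes lie close to them.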

How the data were processed

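The build was mm10 and the tools were FastQC, Trimmomatic, STAR, HTSeq and DESeq2, per the submitters' processing notes. For tool versions, annotation and strand setting, the sources used here give nothing. What the authors deposited are raw counts of reads by gene symbol. HTSeq summary lines, which name no gene, held 53.8% to 54.2% of each library and were left out. Reads that fell in no annotated feature made up 49.7% to 50.1% of each library, and the reason was not tested. Of 32245 symbols, 97.5% were found in GENCODE vM21, which gave positions and exon lengths for RPKM. All 6 libraries were fitted with group means in edgeR 4.0.16 (R 4.3.3), with filterByExpr (minimum count 10, minimum total 15), TMM factors and the quasi-likelihood F test; p-values were adjusted over all 14378 tested genes, with a threshold of 0.05. Standard errors were derived from the log2 fold change and its F value. The fit was tested on simulated data. Libraries of a group were not duplicates (chi-square per degree of freedom 3.82 for BMP2+DM, 17.0 for BMP2 and 13.6 for PBS). These values include the ribosomal-repeat genes, which differed strongly between the replicates of BMP2 and of PBS. They therefore do not rank the groups by the spread of other genes. Counting intervals are exact, at 95%. All 10 members are named, with members of the other lists that passed in a comparison, up to 5 by smallest p. The members and lists were chosen with earlier results of these data known. Alternatives were DESeq2 1.42.0, RLE factors, no filter, 2-group fits, a replicate block, leaving out libraries and leaving out ribosomal-repeat models. Some genes that the rule names are not reported here.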

Additional observations from a re-analysis of the deposited data

How the results depend on the processing

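Depth limits Fosb, Egr2 and Egr3 most, and with 2 libraries a group most calls on members were lost when 1 was left out; such a fit assumes that the lone library varies like the other groups. With 1 library left out, the members called lower were 0 to 1 for BMP2 against PBS (1 in all libraries), 1 to 4 for BMP2+DM against BMP2 (6) and 2 to 6 for BMP2+DM against PBS (6), and none was called higher. Over all genes, the same fits called 843 to 1442 lower and 475 to 1028 higher for BMP2 against PBS (1335 and 942 in all libraries), 356 to 553 lower and 314 to 528 higher for BMP2+DM against BMP2 (639 and 616), and 1085 to 1630 lower and 742 to 1298 higher for BMP2+DM against PBS (1658 and 1349). Without PBS replicate 1 and BMP2 replicate 1 together, 0, 1 and 2 members were called lower in the 3 comparisons, and over all genes 403 lower and 171 higher, 176 lower and 137 higher, and 855 lower and 533 higher. Fewer libraries were compared there, 1 against 1 for BMP2 against PBS.

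The sign changed for differences that were not called in any fit. With 1 library left out, the log2 difference ranged from −0.07 to 0.06 for Jun and from −0.17 to 0.40 for Egr2 in BMP2 against PBS, from −0.11 to 0.02 for Fosl2 and from −0.22 to 0.23 for Jund in BMP2+DM against BMP2, and from 0 to 0.12 for Fosl2 in BMP2+DM against PBS. Without PBS replicate 1 and BMP2 replicate 1 together, Jun was 0.01 and Egr2 −0.20 in BMP2 against PBS, and Jund −0.05 in BMP2+DM against BMP2. The causes were not tested. Fosb had no value in the 2-group fit of BMP2+DM against BMP2, where it was left out as low.

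With the replicate number as a block, 1, 5 and 6 members were called lower, the one lost being Fos for BMP2+DM against BMP2 (adjusted p = 0.0588). Over all 14378 tested genes, that fit called 1329, 625 and 1633 lower and 932, 601 and 1327 higher. Across all 14378 tested genes, deviations of the replicate 1 libraries had correlations of 0.0248 (PBS with BMP2), −0.0227 (PBS with BMP2+DM) and −0.0376 (BMP2 with BMP2+DM). Each gene had equal weight, also those of few counts. BMP2 replicate 1 and PBS replicate 1 did share a high part of ribosomal-repeat counts (2.1% and 1.31%). The correlations therefore cannot show that libraries of the same number are unrelated. DESeq2 called 1, 4 and 5 members lower, and over all tested genes 1112, 537 and 1359 lower and 730, 509 and 1047 higher.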
